A study of Mus musculus with 23 samples.

Results

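The 54 genes described here act in the cell cycle. Of these, 22 serve DNA replication and entry into S phase, and 32 serve mitosis and cytokinesis. They were taken by symbol from a fixed list, and each symbol matched 1 gene among the 43068 genes of the crush libraries and among the 22880 genes of the mutant libraries. RNA was sequenced from whole sciatic nerves (SNs) of mice, a tissue that holds Schwann cells, axons, fibroblasts, vessels and immune cells, in 23 libraries that fall into 7 groups. In the crush experiment, 4 crushed SNs were compared with 4 contralateral SNs and 3 uncrushed SNs. All came from wild-type C57bl6 mice. The surgery was performed on males that were 2 months old, crushed and contralateral SNs were taken 3 days post crush (3 dpc), and the crushed piece spanned 1 mm to 8 mm distal to the crush. The uncrushed SNs carry the label of a surgery control without crush. In the mutant experiment, 3 Dicer iKO SNs (CreERT2 -/+ with Dicer1 flox/flox), 3 Dicer control SNs (CreERT2 -/- with Dicer1 flox/flox), 3 Dgcr8 iKO SNs (CreERT2 -/+ with Dgcr8 flox/flox) and 3 Dgcr8 control SNs (CreERT2 -/- with Dgcr8 flox/flox) were compared, all on a C57bl6 background. Mutants and controls alike had received tamoxifen at 8 to 10 weeks of age and were taken 3 months post tamoxifen (3 mpT). The inducible Cre is driven by promoter parts that are active in Schwann cells, so other cell types of the nerve are not targeted, and the mutants had been preselected for affected morphology. Dicer1 encodes the nuclease that cuts miRNA hairpins to their mature form, and Dgcr8 encodes the RNA-binding partner of Drosha in the microprocessor.

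A dividing cell copies its DNA in S phase and separates the copies in mitosis. The replication genes load and start the MCM helicase, make deoxynucleotides and carry the fork, and they are driven mainly by E2F factors. Most mitosis genes peak later, in G2 and M phase, and are repressed in resting cells by the DREAM complex, which binds their promoters at CHR elements and, with the B-MYB and FOXM1 factors taking its place, releases them as cells divide. Schwann cells of an adult nerve rarely divide, and they re-enter the cell cycle in the distal stump after a nerve injury, where macrophages also accumulate and can divide. Whole-nerve RNA does not tell which of these cells held a transcript.

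The promoters of the 2 lists are shown because some sequence elements differed in frequency between the lists. The choice of genes did not use sequence. RefSeq promoter windows (GRCm38.p6, 250 bases before to 50 bases after the start) were found for 46 of the 54 genes. A CHR-like element (TTTGAA or TTTAAA, either strand) stood in the window of 23 of 27 mitosis genes (85.2%) and of 7 of 19 replication genes (36.8%), beside 30.6% of all 27025 genes with a window. A CCAAT box (CCAAT, either strand) stood in 22 of 27 mitosis genes (81.5%) and 13 of 19 replication genes (68.4%), beside 41.1% of all genes. An E2F-like element (TTCCCGC or TTGGCGC, either strand) was found in 13 of 19 replication genes (68.4%) and 6 of 27 mitosis genes (22.2%), beside 7.79% of all genes. CHR-like and CCAAT matches occurred together in 21 mitosis genes (77.8%) and 6 replication genes (31.6%), beside 12.2% of all genes. Matches to CCAAT and to an E2F-like element overlapped in the windows of 4 members (Ccnb1, E2f8, Ect2 and Mcm7), and a CHR-like match overlapped another match in 1 (Cdca8). The 150 bases before the start are printed for the mitosis genes Mki67, Top2a and Kif11, whose rise after crush was highest among those with both matches in that stretch, and for Cdk1, the mitotic kinase, with CHR-like and CCAAT matches in capitals.
Mki67 (chr7:135716380-135716529, minus strand): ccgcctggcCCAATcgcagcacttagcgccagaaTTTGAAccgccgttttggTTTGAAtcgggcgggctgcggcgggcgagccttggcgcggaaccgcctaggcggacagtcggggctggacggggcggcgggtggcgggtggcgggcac
Top2a (chr11:99024190-99024339, minus strand): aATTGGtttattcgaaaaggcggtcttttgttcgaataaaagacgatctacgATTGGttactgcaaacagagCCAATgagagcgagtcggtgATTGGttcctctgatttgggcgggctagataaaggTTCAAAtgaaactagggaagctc
Kif11 (chr19:37376232-37376381, plus strand): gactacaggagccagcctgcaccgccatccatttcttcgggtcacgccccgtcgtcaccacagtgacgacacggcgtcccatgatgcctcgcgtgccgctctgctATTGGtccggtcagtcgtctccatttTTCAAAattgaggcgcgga
Cdk1 (chr10:69352913-69353062, minus strand): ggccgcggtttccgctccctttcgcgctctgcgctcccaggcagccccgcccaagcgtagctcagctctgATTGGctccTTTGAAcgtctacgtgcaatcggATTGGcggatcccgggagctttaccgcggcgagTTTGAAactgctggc
In Top2a the CHR-like match began 23 bases before the start, in Kif11 19 bases before it and in Cdk1, which had a further match from 71 bases before the start, 15 bases before it. Those of Mki67 began 116 and 98 bases before the start. The replication genes Uhrf1, Mcm5 and E2f8, chosen in the same way with the E2F-like match in capitals, are followed by Tyms, the member that did not rise after crush.
Uhrf1 (chr17:56303187-56303336, plus strand): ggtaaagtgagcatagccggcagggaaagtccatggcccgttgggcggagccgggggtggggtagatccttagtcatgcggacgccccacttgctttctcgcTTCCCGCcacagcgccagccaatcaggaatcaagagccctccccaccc
Mcm5 (chr8:75109359-75109508, plus strand): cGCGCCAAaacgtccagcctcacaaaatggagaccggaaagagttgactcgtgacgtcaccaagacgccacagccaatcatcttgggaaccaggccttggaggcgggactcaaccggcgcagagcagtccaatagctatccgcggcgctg
E2f8 (chr7:48881597-48881746, minus strand): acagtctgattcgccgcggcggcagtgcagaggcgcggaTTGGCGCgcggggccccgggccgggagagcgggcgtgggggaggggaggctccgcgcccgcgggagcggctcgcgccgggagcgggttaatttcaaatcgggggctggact
Tyms (chr5:30073626-30073775, minus strand): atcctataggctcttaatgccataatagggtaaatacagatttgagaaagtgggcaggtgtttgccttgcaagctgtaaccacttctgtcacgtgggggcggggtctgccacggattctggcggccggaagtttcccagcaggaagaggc
The E2F-like match began 48 bases before the start in Uhrf1, 149 bases before it in Mcm5 and 111 bases before it in E2f8. These stretches also held CCAAT matches, and that of E2f8 a CHR-like match from 20 bases before the start. The printed Mki67 stretch also held an E2F-like match, from 67 bases before the start. Such matches outside the list's own elements are not in capitals. The Tyms stretch held none of the 3 elements, which says only that these letters do not occur there. The stretches of Cdt1, E2f1 and Chek1, which did rise after crush, held none either. The whole windows of Cdt1 and Chek1 did hold an E2F-like match.

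Read totals per library ran from 6617600 to 12805921 estimated counts in the crush experiment and from 5594838 to 10143207 in the mutant experiment, so that 3 counts correspond to 0.234 to 0.453 CPM (counts scaled to a common library size) and 0.296 to 0.536 CPM. The 2 experiments were prepared with different kits and normalized apart, and levels are compared only within each. The 8 markers of Schwann cells at all stages or in the immature state, Sox10 and S100b among them, were detected in every group, and their summed level was 882 to 1030.0 CPM in uncrushed and 1351 to 1853 CPM in crushed SNs. Dicer1 had 81.3 to 82.1 CPM in Dicer iKO and 87.4 to 90.5 CPM in Dicer control SNs, so that every mutant library lay below every control library, but the difference was small and not called (log2 fold change −0.11 ± 0.08 (SE), adjusted p = 0.357). Dgcr8 had 39.4 to 54 CPM in Dgcr8 iKO and 35.4 to 41.8 CPM in Dgcr8 control SNs, with overlap (0.22 ± 0.15, adjusted p = 0.233). Counts over a whole gene do not resolve the floxed exons, and the nerve holds cells without Cre, so this is a weak check of the labels. A gene counts as called where edgeR's quasi-likelihood test over all genes gave an adjusted p no larger than 0.05 and the level changed 2-fold or more (1 on the log2 scale). Errors of log2 fold changes are standard errors. The study counts the libraries of a group as separate mice. Per its methods, the contralateral SN was the uninjured nerve of an operated mouse. Which crushed and contralateral libraries share a mouse is not given in the sources used here, and the test treated the groups as unpaired.

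**Figure D1:**
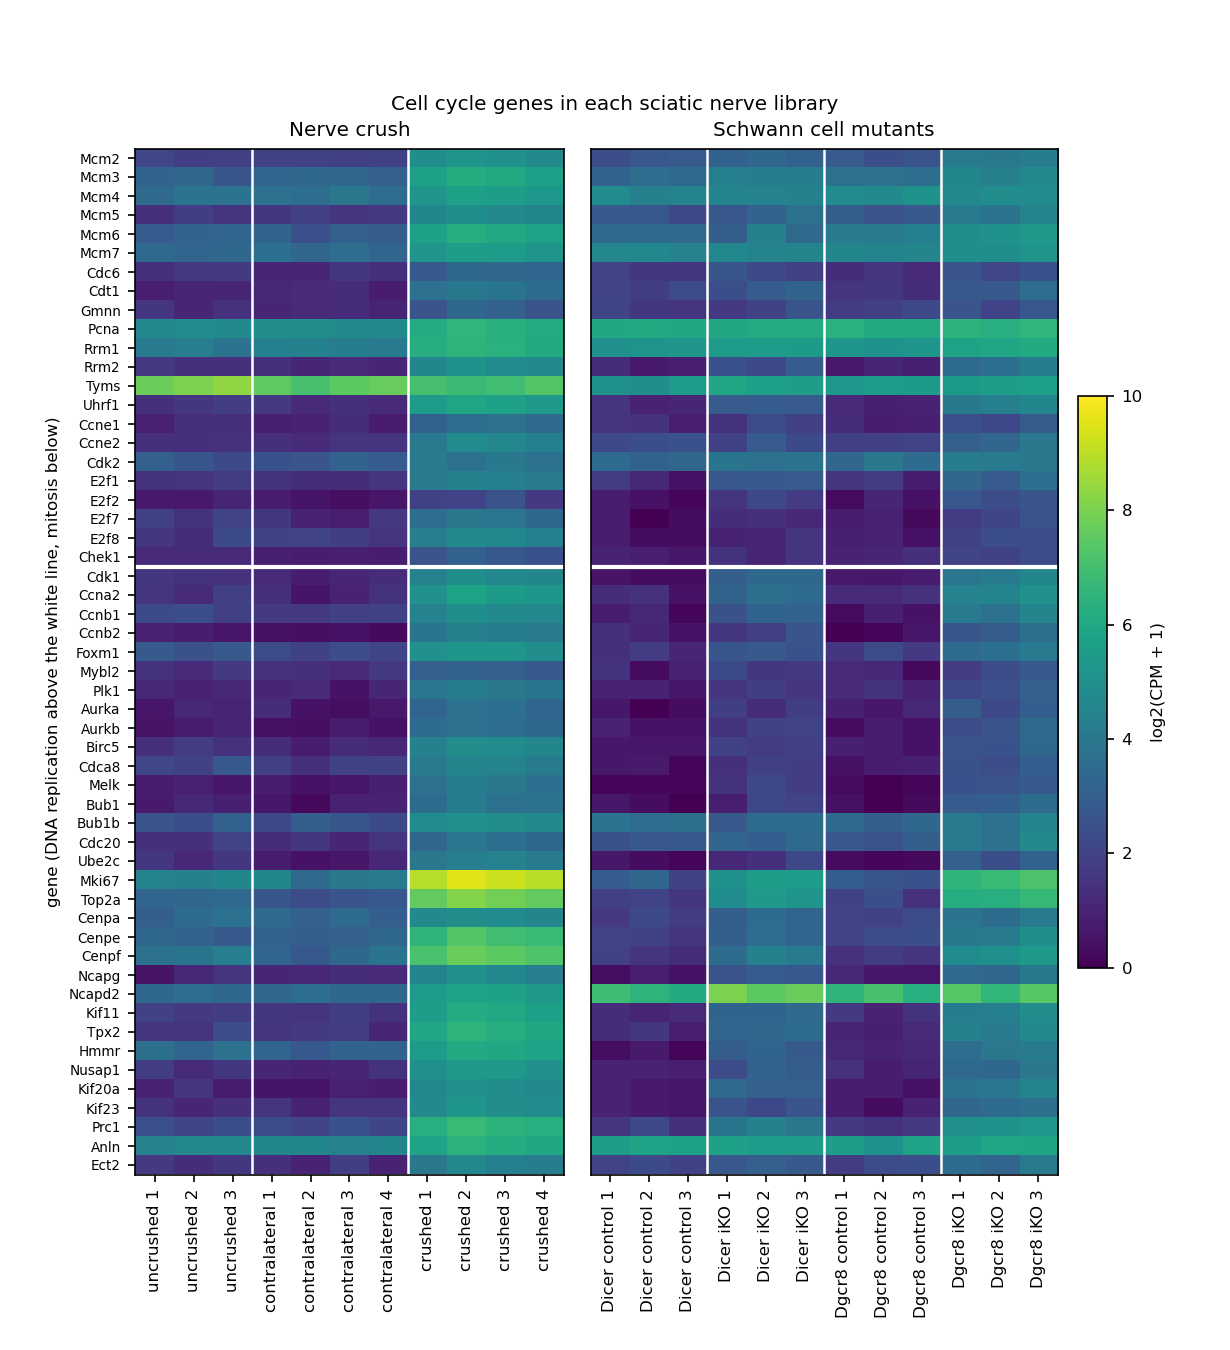
Level of the 54 genes (rows) in the 23 libraries (columns) as log2(CPM + 1), with the crush experiment on the left and the mutant experiment on the right, DNA replication above and mitosis below the white line. The crushed columns are brighter than both control groups for all genes but Tyms, and the mutant columns are brighter than their controls mainly below the line.

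At 3 dpc, nearly the whole program was upregulated. Against uncrushed SNs, 21 of 22 replication genes and 32 of 32 mitosis genes were called higher, where 15.3% of all 17433 genes tested were. Against contralateral SNs the counts were again 21 of 22 and 32 of 32, where 14.6% of 16667 genes were called higher. No member was called lower in either comparison, where 21.1% and 13.6% of genes were. Both comparisons share the 4 crushed SNs and are therefore not independent of each other. Every crushed library lay above every uncrushed library for 53 members, where 29.8% of genes did, and above every contralateral library for 53 members, where 30.3% did. The median log2 fold change against uncrushed SNs was 2.73 for replication and 3.83 for mitosis genes, and against contralateral SNs it was 2.99 and 4.24, with medians over all genes of −0.03 and −0.06. Summed over the list, mitosis genes made up 149.8 to 177 CPM in uncrushed, 108 to 134 CPM in contralateral and 1638 to 2416 CPM in crushed SNs, while replication genes made up 321 to 435, 244 to 307 and 688 to 855 CPM. Tyms, which did not rise, alone held 215 to 327, 135 to 204 and 112 to 159 CPM of these replication sums. It was most of the sum in both control groups, so the sums understate the rise of the other replication genes. More dividing cells and more RNA per dividing cell cannot be told apart in whole-nerve RNA.

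**Figure D2:**
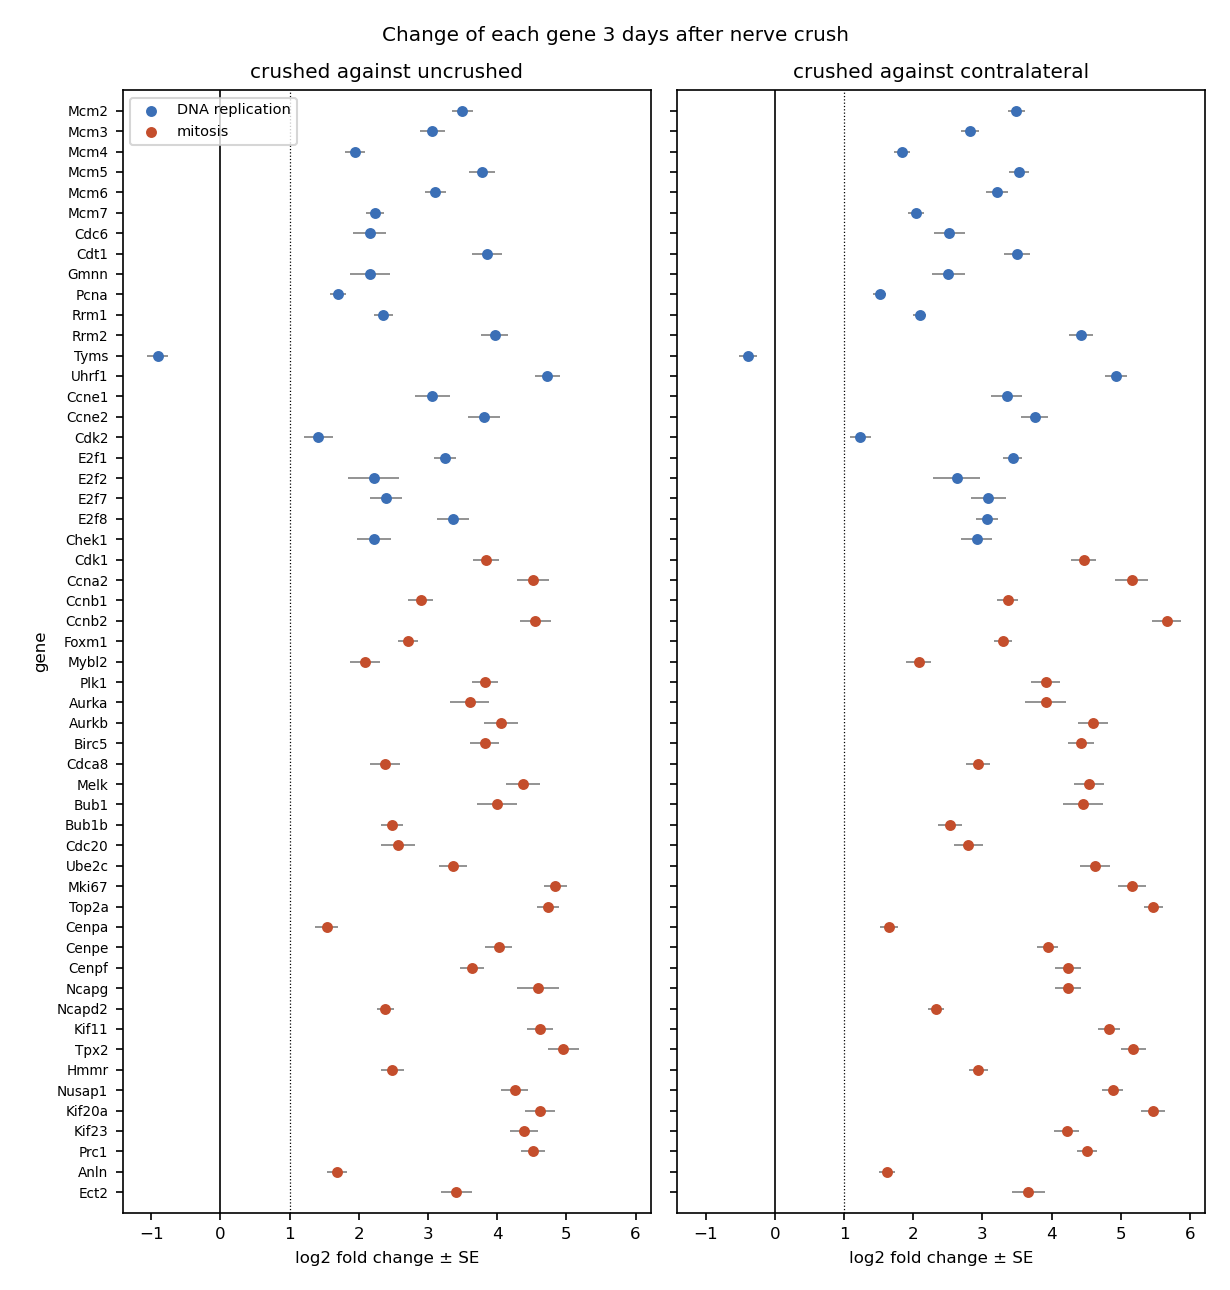
Log2 fold change of each gene, with its standard error, in crushed SNs against uncrushed (left) and contralateral (right) SNs. The solid line marks no change and the dotted line a fold change of 2. All genes but Tyms lie to the right of the dotted line.

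Among the genes that license replication origins, 9 of 9 rose after crush. Their median change on the log2 scale was 3.06 relative to uncrushed SNs and 2.82 relative to contralateral SNs. Cdt1, which loads the MCM helicase together with Cdc6, rose most against uncrushed SNs, and Mcm5 against contralateral SNs (3.53). Cdt1 had 0.809, 1.13 and 1.02 CPM in uncrushed, 1.23, 1.26, 1.4 and 0.718 CPM in contralateral and 12.76, 15.3, 13.8 and 10.7 CPM in crushed SNs (log2 fold change 3.85 ± 0.21 against uncrushed, adjusted p = 1.69e-08). Mcm2, a subunit of the helicase, had 3.33, 2.63 and 2.73 CPM in uncrushed, 2.83, 2.83, 2.71 and 2.77 CPM in contralateral and 30.2, 36.3, 32.1 and 26.3 CPM in crushed SNs (log2 fold change 3.5 ± 0.16). The smallest rise against uncrushed SNs was that of another subunit, Mcm4. It had 10.1, 13.5 and 13 CPM in uncrushed, 12.4, 11.2, 14.4 and 10.9 CPM in contralateral and 36.2, 51.5, 47 and 39.1 CPM in crushed SNs (log2 fold change 1.95 ± 0.14, adjusted p = 2.01e-07). Mcm7 had the highest level per length of the 9 genes in crushed SNs (4.96 ± 1.52 TPM, a length-scaled level, mean ± SD, n = 4) and counted 9.8, 8.5 and 9.37 CPM in uncrushed, 11.7, 8.8, 10.9 and 8.61 CPM in contralateral and 36.4, 47.2, 44.3 and 35.4 CPM in crushed SNs. In all 4 genes the lowest crushed library lay far above the highest control library. Mcm3, Mcm5, Mcm6, Cdc6 and the Cdt1 inhibitor Gmnn rose by log2 fold changes of 2.16 (Cdc6) to 3.78 (Mcm5) against uncrushed SNs.

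Of the 5 genes of nucleotide supply and the fork, 4 rose. Uhrf1, which recruits the maintenance DNA methyltransferase to newly copied DNA, had 1.53, 2.0 and 2.56 CPM in uncrushed, 2.17, 1.26, 1.61 and 1.33 CPM in contralateral and 44.5, 57.1, 51.9 and 39.9 CPM in crushed SNs (log2 fold change 4.73 ± 0.18, adjusted p = 8.1e-10), the largest rise of any replication member. Rrm2, the S-phase subunit of ribonucleotide reductase, had 2.25, 1.63 and 1.53 CPM in uncrushed, 1.6, 1.1, 1.3 and 1.13 CPM in contralateral and 22.9, 33.9, 27.2 and 25.8 CPM in crushed SNs (log2 fold change 3.96 ± 0.2). Pcna, the sliding clamp, was already well expressed in the resting nerve. It had 23.8, 28.1 and 26.1 CPM in uncrushed, 29.3, 29.5, 26.4 and 26.2 CPM in contralateral and 70.5, 93.8, 81 and 70.6 CPM in crushed SNs, a log2 fold change of 1.71 ± 0.12. Its level per length in crushed SNs was the highest of all members (10.8 ± 2.61 TPM). Rrm1, the constitutive subunit of the reductase, rose by 2.35 on the log2 scale.

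Tyms, which makes thymidylate, was the exception. It had 215, 257 and 327 CPM in uncrushed, 181, 135, 177 and 204 CPM in contralateral and 131, 112, 123 and 159 CPM in crushed SNs. Every crushed library lay below every uncrushed library, whereas crushed and contralateral libraries overlapped. The log2 fold change was −0.91 ± 0.15 against uncrushed (adjusted p = 0.000258) and −0.38 ± 0.13 against contralateral SNs (adjusted p = 0.0173), short of the limit of 1 in both. With crushed replicate 4 left out, the change against uncrushed SNs passed that limit. Per length, Tyms was the most abundant member in both control groups (8.03 ± 2.76 TPM in uncrushed and 8.09 ± 0.748 TPM in contralateral SNs), and 94.5% to 99.5% of its counts in crush libraries lay on a 3163-base protein-coding transcript.

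The 8 genes of S-phase entry and the replication checkpoint all rose, with a median of 2.73 against uncrushed SNs. Ccne2, a cyclin E that starts S phase with Cdk2, had 1.62, 1.63 and 1.7 CPM in uncrushed, 1.6, 1.26, 1.81 and 1.85 CPM in contralateral and 16, 27.9, 23.7 and 19 CPM in crushed SNs (log2 fold change 3.81 ± 0.23). Its kinase Cdk2 moved least, with 7.37, 5.38 and 3.58 CPM in uncrushed, 4.81, 5.26, 7.73 and 6.56 CPM in contralateral and 16, 12.6, 15.4 and 12.4 CPM in crushed SNs (log2 fold change 1.41 ± 0.21, adjusted p = 8.75e-05). The activator E2f1 rose by 3.25 on the log2 scale, and the atypical repressors E2f7 and E2f8, themselves made in S phase, rose by 2.4 and 3.36. E2f2, another activator, was the least abundant of the 8 per length in crushed SNs (0.367 ± 0.197 TPM) and still rose by 2.21.

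The cyclins, the mitotic kinase and their transcription factors rose in 6 of 6 cases. Cdk1 had 1.98, 1.75 and 1.7 CPM in uncrushed, 1.32, 0.707, 1.1 and 1.44 CPM in contralateral and 20.9, 30.6, 24.4 and 22.8 CPM in crushed SNs (log2 fold change 3.83 ± 0.19, adjusted p = 5.11e-09). Its partner Ccnb1 had 3.69, 4.25 and 2.73 CPM in uncrushed, 2.17, 2.12, 2.71 and 2.97 CPM in contralateral and 20.5, 30.8, 26 and 23.9 CPM in crushed SNs (log2 fold change 2.9 ± 0.18). Ccnb2, another B-type cyclin, had 0.899, 0.75 and 0.511 CPM in uncrushed, 0.377, 0.314, 0.401 and 0.205 CPM in contralateral and 13.7, 19.6, 17.6 and 16.6 CPM in crushed SNs. It rose most in the group, by 4.55 ± 0.23 against uncrushed and by 5.66 ± 0.21 against contralateral SNs, the latter being the largest rise of all 54 genes in that comparison. Mybl2, which encodes B-MYB, had 1.8, 1.38 and 2.22 CPM in uncrushed, 1.7, 1.57, 1.3 and 2.15 CPM in contralateral and 7.3, 7.58, 7.43 and 5.94 CPM in crushed SNs and the smallest rise of the group (log2 fold change 2.09 ± 0.21). Ccna2 rose by 4.52 and Foxm1 by 2.71 on the log2 scale.

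All 6 mitotic kinases and passenger proteins rose, with log2 fold changes from 2.38 (Cdca8) to 4.38 (Melk). Melk, a kinase of dividing progenitors, had 0.719, 0.876 and 0.511 CPM in uncrushed, 0.755, 0.393, 0.502 and 0.82 CPM in contralateral and 12.6, 17.4, 15.2 and 11.6 CPM in crushed SNs. Birc5 (survivin), a subunit of the chromosomal passenger complex, had 1.53, 2.5 and 1.7 CPM in uncrushed, 1.41, 0.707, 1.4 and 1.23 CPM in contralateral and 20.1, 30.1, 27.2 and 23 CPM in crushed SNs. Cdca8 (borealin), of the same complex, had 3.33, 2.88 and 5.79 CPM in uncrushed, 2.74, 1.65, 2.81 and 2.77 CPM in contralateral and 15.7, 22.2, 21.4 and 15.7 CPM in crushed SNs. It rose least of the 6 in both comparisons. Plk1 and the Aurora kinases Aurka and Aurkb were at 0.301 to 1.41 CPM in the 7 control SNs and at 8.51 to 17.2 CPM in the 4 crushed SNs.

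Genes of the spindle checkpoint and of the anaphase-promoting complex rose in 4 of 4 cases. Bub1, a checkpoint kinase at kinetochores, had 0.629, 1.25 and 0.852 CPM in uncrushed, 0.566, 0.157, 0.903 and 0.923 CPM in contralateral and 10.5, 17.8, 12.2 and 13.1 CPM in crushed SNs (log2 fold change 4.0 ± 0.28). Its relative Bub1b had 5.3, 4.25 and 7.5 CPM in uncrushed, 3.49, 7.07, 5.42 and 3.79 CPM in contralateral and 27.9, 32.4, 29.8 and 25.5 CPM in crushed SNs (log2 fold change 2.48 ± 0.16). Ube2c, the ubiquitin-conjugating enzyme that works with the complex, had 2.07, 1.25 and 2.04 CPM in uncrushed, 0.755, 0.393, 0.502 and 1.23 CPM in contralateral and 15, 18.3, 20.5 and 15.8 CPM in crushed SNs. Its rise was 3.37 ± 0.2 against uncrushed and 4.63 ± 0.22 against contralateral SNs, and the contralateral libraries were the lower of the control groups. Cdc20, the activator of the complex, rose by 2.56 on the log2 scale against uncrushed SNs.

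Among 7 genes of chromosomes and centromeres, all rose. Per length, Mki67 (9.97 ± 2.92 TPM) and Top2a (9.44 ± 2.39 TPM) were the most abundant mitosis genes of the crushed nerve. Mki67, whose protein coats mitotic chromosomes and marks cycling cells, had 21, 19.5 and 23.3 CPM in uncrushed, 23, 9.82, 15 and 16.5 CPM in contralateral and 472, 719, 596 and 485 CPM in crushed SNs (log2 fold change 4.84 ± 0.17, adjusted p = 3.95e-10). Top2a, which untangles sister chromatids, had 8.54, 8.76 and 9.71 CPM in uncrushed, 5.47, 4.08, 5.12 and 5.74 CPM in contralateral and 191, 279, 232 and 192 CPM in crushed SNs (log2 fold change 4.74 ± 0.16, adjusted p = 2.83e-10). Together both genes made up 39.7% to 41.3% of the summed CPM of the 32 mitosis genes in crushed SNs and 12.84% to 21.3% in the control SNs of this experiment. The kinetochore proteins Cenpe and Cenpf reached 93.2, 158, 122 and 106 CPM and 139, 212, 178 and 151 CPM in crushed SNs. Cenpa, the histone variant that marks centromeres, had 7.19, 10.4 and 12.78 CPM in uncrushed, 9.62, 7.38, 10.3 and 6.87 CPM in contralateral and 26.3, 29.5, 28.3 and 22.3 CPM in crushed SNs and the smallest rise of any mitosis gene against uncrushed SNs (log2 fold change 1.54 ± 0.16, adjusted p = 4.8e-06). The condensin subunits Ncapg and Ncapd2 rose by 4.59 and 2.38.

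The largest rise against uncrushed SNs was that of Tpx2, which builds the spindle around chromosomes and activates Aurora A. It had 1.89, 1.88 and 4.09 CPM in uncrushed, 1.89, 2.28, 2.51 and 1.13 CPM in contralateral and 59, 88.9, 74.9 and 62.3 CPM in crushed SNs (log2 fold change 4.96 ± 0.23). Hmmr, a spindle protein, had 11.9, 8.63 and 12.6 CPM in uncrushed, 8.49, 5.73, 8.13 and 8.1 CPM in contralateral and 44.1, 68.1, 63 and 55.4 CPM in crushed SNs and the smallest rise of the 4 spindle genes (log2 fold change 2.49 ± 0.17). The motor Kif11 and the microtubule protein Nusap1 rose by 4.62 and 4.25. Of the midzone and cytokinesis genes, Kif20a, a motor of the midzone, had 0.989, 1.88 and 0.682 CPM in uncrushed, 0.472, 0.471, 0.903 and 0.718 CPM in contralateral and 24.6, 32, 29 and 26.1 CPM in crushed SNs (log2 fold change 4.62 ± 0.22). Its reads cannot be told from those of Cdc23 on the opposite strand unless strand was used in counting, which is not given in the sources used here, and Cdc23 itself did not rise (log2 fold change −0.23 ± 0.13). Prc1, which bundles midzone microtubules, had 4.49, 3.25 and 4.26 CPM in uncrushed, 4.06, 3.3, 4.72 and 3.28 CPM in contralateral and 75.3, 109, 86.9 and 76 CPM in crushed SNs. Anln (anillin), a scaffold of the cleavage furrow, had 20.7, 23.6 and 24.2 CPM in uncrushed, 22.9, 23.1, 20.8 and 22.9 CPM in contralateral and 54.2, 85.1, 73 and 61.6 CPM in crushed SNs and rose by 1.69 ± 0.14. Per length, its level in uncrushed SNs (0.40 ± 0.156 TPM) was above that of the other midzone genes, the next being Prc1 (0.183 ± 0.0321 TPM). Kif23 and Ect2 rose by 4.39 and 3.41.

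**Figure D3:**
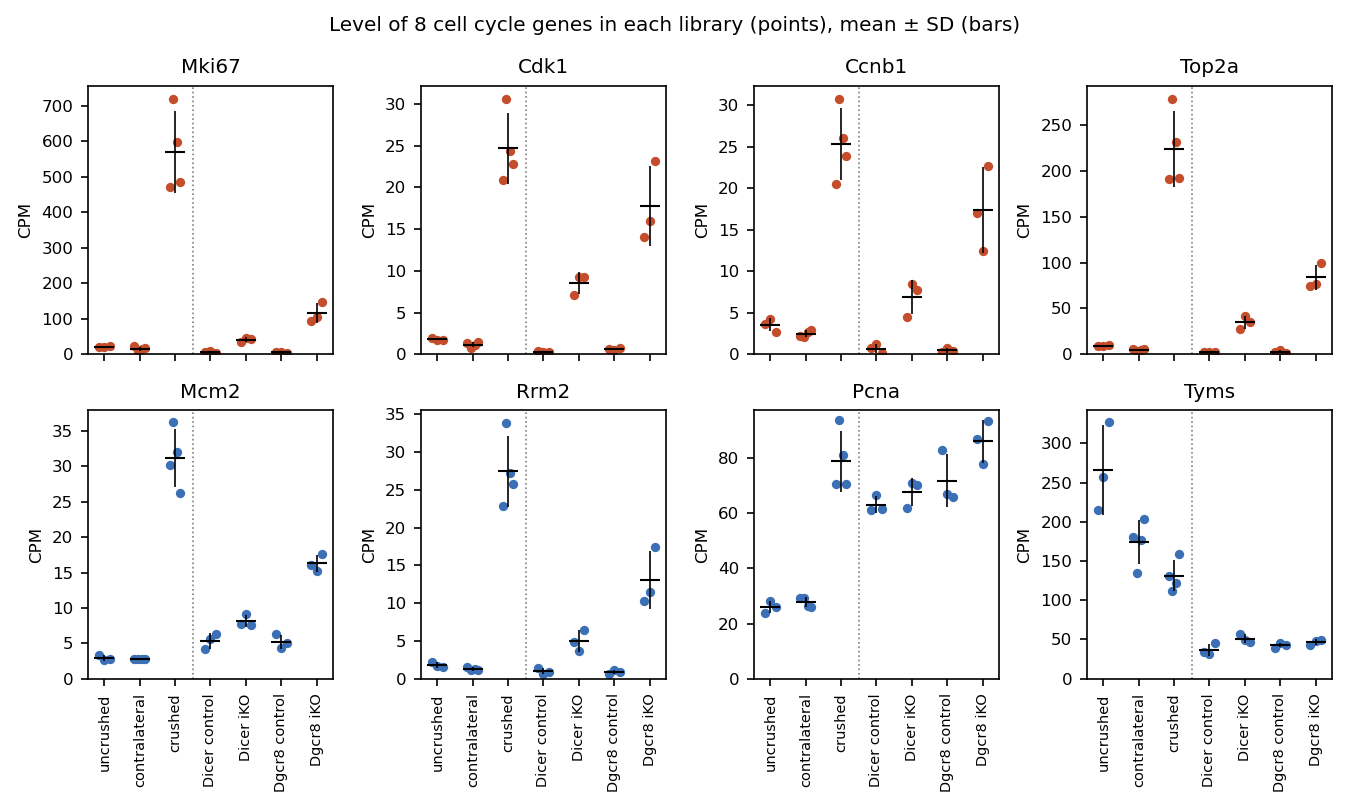
CPM of 8 genes in each library (points), with the group mean and SD (bars), on linear axes from 0. The crush experiment is left and the mutant experiment right of the dotted line. Mki67, Cdk1, Ccnb1, Top2a, Mcm2 and Rrm2 lie above their controls in crushed SNs and in both mutants, Pcna does so in crushed SNs but overlaps with controls in both mutants, and in the crush experiment Tyms is highest in uncrushed SNs.

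Within the crushed group, the 4 libraries kept a common order for most genes. Crushed replicate 2 was the highest for 49 of 54 members, and crushed replicate 1 (33 members) or 4 (20 members) the lowest. Even the lowest crushed library had a median log2 ratio to the uncrushed mean of 2.01 for replication and 2.85 for mitosis genes, on CPM with a pseudocount of 1. The comparison of contralateral with uncrushed SNs gave no call in either direction among the 21 replication and 26 mitosis genes tested, where 0% of 17722 genes were called higher and 0 lower by edgeR. In these data, 7 mitosis genes (Ccnb1, Foxm1, Cdca8, Ube2c, Top2a, Cenpf and Hmmr) and 2 replication genes (Tyms and Chek1) had an unadjusted p under 0.05, all lower in contralateral SNs, beside 1005 genes higher and 2160 lower among all tested. The log2 fold change was below 0 for 24 of 26 mitosis and 12 of 21 replication genes. The medians were −0.36 and −0.08, beside −0.02 over all genes. Genes of 1 program move together, so these counts are not independent results. Top2a, for example, differed by −0.82 ± 0.17 (adjusted p = 0.105), with no overlap between the groups. DESeq2 gave an adjusted p for only 18 members in this comparison and called none of them.

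**Figure D4:**
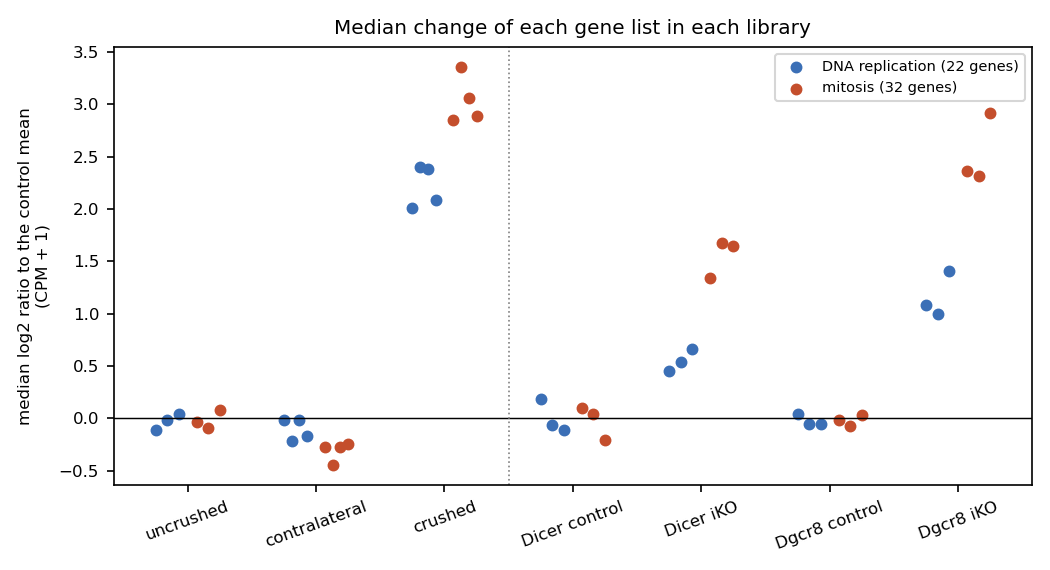
Median over the 22 replication and 32 mitosis genes of the log2 ratio of each library's CPM + 1 to the mean of its controls (uncrushed, Dicer control or Dgcr8 control SNs). Each point is a library. Crushed libraries lie at 2.01 to 2.40 for replication and 2.85 to 3.36 for mitosis, Dicer iKO libraries at 0.45 to 0.67 and 1.34 to 1.68, and Dgcr8 iKO libraries at 1.0 to 1.41 and 2.32 to 2.92.

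Both mutants, whose SNs were not crushed, showed a rise of cell cycle genes, most of them mitosis genes. In Dicer iKO SNs, 23 of 30 mitosis genes tested were called higher, and 4 of 19 replication genes tested, where 7.37% of 13045 genes were. In Dgcr8 iKO SNs, 29 of 32 mitosis genes and 14 of 22 replication genes were called higher, where 13.4% of 13252 genes were. None was called lower in either mutant, where 1.64% and 6.99% of genes were. The filter on low counts left out 5 members in Dicer iKO (E2f7, E2f8, Chek1, Bub1 and Ube2c), whose control libraries held at most 1.01 CPM. Genes without overlap between mutant and control libraries, with the mutants higher, numbered 28 mitosis and 10 replication genes in Dicer iKO, where 21.9% of genes did so, and 30 and 17 in Dgcr8 iKO, where 28.9% did. The median log2 fold change of the tested genes was 0.60 (replication) and 2.65 (mitosis) in Dicer iKO, and 1.51 and 3.75 in Dgcr8 iKO, with medians over all genes of −0.01 in both. All 4 replication genes called in Dicer iKO were also called in Dgcr8 iKO, as were 22 of the 23 mitosis genes. When 10 counts were required in every library, which removes genes that are near 0 in controls, 7 mitosis and 0 replication genes were called in Dicer iKO and 10 and 6 in Dgcr8 iKO. For genes whose controls hold few counts, the fitted fold change depends on edgeR's prior count. Control counts summed over the 3 libraries came to 10 or fewer for 10 members in Dicer controls (E2f2, E2f7, E2f8, Cdk1, Aurka, Cdca8, Melk, Bub1, Ube2c and Hmmr) and for 4 in Dgcr8 controls (Ccnb2, Melk, Bub1 and Ube2c).

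**Figure D5:**
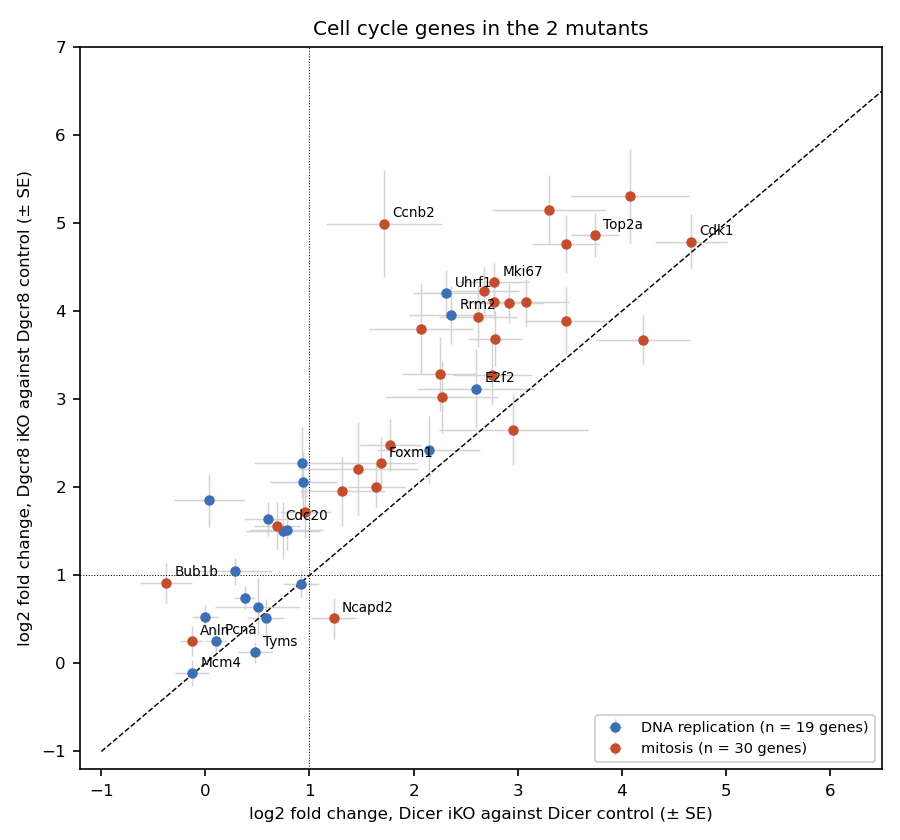
Log2 fold change in Dgcr8 iKO (vertical axis) against that in Dicer iKO (horizontal axis) for the 49 members tested in both, with standard errors. The dashed line marks equal changes and the dotted lines a fold change of 2. Of the mitosis genes 27 of 30, and of the replication genes 11 of 19, lie above the horizontal dotted line, and 43 of 49 points lie above the dashed line.

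The replication genes called in both mutants were Rrm2, Uhrf1, E2f1 and E2f2. Rrm2 had 1.44, 0.661 and 0.811 CPM in Dicer control, 4.79, 3.62 and 6.51 CPM in Dicer iKO, 0.59, 1.09 and 0.8291 CPM in Dgcr8 control and 10.3, 11.5 and 17.5 CPM in Dgcr8 iKO SNs (log2 fold change 2.36 ± 0.41 in Dicer iKO and 3.96 ± 0.33 in Dgcr8 iKO). Uhrf1 had 1.87, 0.926 and 1.08 CPM in Dicer control, 6.39, 6.56 and 6.37 CPM in Dicer iKO, 1.3, 0.816 and 0.933 CPM in Dgcr8 control and 15.5, 18.7 and 23 CPM in Dgcr8 iKO SNs (log2 fold change 2.31 ± 0.32 and 4.2 ± 0.27). No mutant library overlapped with its controls in either gene. E2f1 had 2.44, 1.19 and 0.405 CPM in Dicer control, 5.59, 5.87 and 6.37 CPM in Dicer iKO, 1.89, 2.45 and 0.725 CPM in Dgcr8 control and 8.85, 6.39 and 11.4 CPM in Dgcr8 iKO SNs (log2 fold change 2.14 ± 0.49 and 2.42 ± 0.39). E2f2 had 0.718, 0.397 and 0.135 CPM in Dicer control, 1.86, 3.62 and 2.35 CPM in Dicer iKO, 0.236, 1.09 and 0.415 CPM in Dgcr8 control and 5.54, 4.1 and 5.25 CPM in Dgcr8 iKO SNs (log2 fold change 2.6 ± 0.57 and 3.12 ± 0.45). The controls of both E2F activators varied by several fold among themselves, and in Dicer iKO their calls were lost without Dicer control replicate 2 (adjusted p = 0.0878 and 0.0794), without Dicer iKO replicate 2 (0.0786 and 0.0774) and without Dicer iKO replicate 3 (0.0902 and 0.07). With either of these mutant libraries left out, 2 replication genes were called in Dicer iKO.

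A further 10 replication genes were called in Dgcr8 iKO, of which 7 were tested and not called in Dicer iKO and 3 were not tested there. Among them were 3 MCM subunits and both loading factors. Mcm2 had 4.17, 5.55 and 6.35 CPM in Dicer control, 7.72, 9.14 and 7.61 CPM in Dicer iKO, 6.26, 4.35 and 4.97 CPM in Dgcr8 control and 16, 15.3 and 17.6 CPM in Dgcr8 iKO SNs (log2 fold change 1.64 ± 0.2 in Dgcr8 iKO, adjusted p = 7.72e-05, and 0.6 ± 0.23 in Dicer iKO, adjusted p = 0.102). Mcm5 had 5.89, 5.82 and 3.51 CPM in Dicer control, 5.59, 7.94 and 12.6 CPM in Dicer iKO, 7.08, 4.9 and 6.01 CPM in Dgcr8 control and 17.1, 13.5 and 21.3 CPM in Dgcr8 iKO SNs (log2 fold change 1.52 ± 0.23 in Dgcr8 iKO and 0.78 ± 0.35 in Dicer iKO). Mcm6 had 10.1, 9.92 and 10 CPM in Dicer control, 7.05, 19.8 and 9.97 CPM in Dicer iKO, 16.8, 15.8 and 19 CPM in Dgcr8 control and 30.9, 34 and 41.9 CPM in Dgcr8 iKO SNs (log2 fold change 0.28 ± 0.35 in Dicer iKO), and at 1.05 ± 0.15 in Dgcr8 iKO it was close to the fold limit, which it missed without Dgcr8 control replicate 2 (0.98) or Dgcr8 iKO replicate 3 (0.92). Dgcr8 iKO and Dgcr8 control libraries did not overlap in these 3 genes. Cdt1 had 3.16, 2.64 and 4.05 CPM in Dicer control, 4.26, 6.56 and 8.17 CPM in Dicer iKO, 1.89, 2.04 and 1.45 CPM in Dgcr8 control and 5.66, 5.91 and 11 CPM in Dgcr8 iKO SNs (log2 fold change 2.06 ± 0.34 in Dgcr8 iKO and 0.94 ± 0.32 in Dicer iKO). Cdc6 had 3.02, 1.98 and 2.03 CPM in Dicer control, 5.32, 3.62 and 2.77 CPM in Dicer iKO, 1.42, 1.9 and 1.35 CPM in Dgcr8 control and 5.19, 3.43 and 4.67 CPM in Dgcr8 iKO SNs (log2 fold change 1.51 ± 0.32 in Dgcr8 iKO and 0.74 ± 0.36 in Dicer iKO). The mutant libraries annotate a read-through gene over Cdt1 on the same strand, Gm20388, at 16 to 81.6 CPM, so the split of reads between them is uncertain. Of the remaining subunits, Mcm3 rose by 0.92 ± 0.17 in Dicer iKO and 0.9 ± 0.16 in Dgcr8 iKO, just under the fold limit in both. Mcm4 was not called in either mutant, with 28.3, 19.4 and 21.3 CPM in Dicer control, 22.1, 20.7 and 20.2 CPM in Dicer iKO, 27.2, 26.1 and 34.4 CPM in Dgcr8 control and 25.1, 28.9 and 27.5 CPM in Dgcr8 iKO SNs (log2 fold change −0.13 ± 0.16 and −0.11 ± 0.15). Mcm7 had 23.6, 24.3 and 20.7 CPM in Dicer control, 24.4, 21.4 and 22.3 CPM in Dicer iKO, 23.3, 21.5 and 22.4 CPM in Dgcr8 control and 30.9, 31 and 35.3 CPM in Dgcr8 iKO SNs, and log2 fold changes of −0.01 ± 0.12 and 0.53 ± 0.13. The MCM subunits, which form a single helicase ring, thus differed among themselves, and Gmnn was not called in either mutant (0.5 ± 0.41 and 0.65 ± 0.32).

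The cyclins E and the S-phase factors made up the rest of the replication genes called in Dgcr8 iKO. Ccne1 had 1.87, 1.72 and 0.811 CPM in Dicer control, 1.73, 3.97 and 2.77 CPM in Dicer iKO, 1.42, 0.68 and 0.8291 CPM in Dgcr8 control and 4.36, 3.53 and 6.65 CPM in Dgcr8 iKO SNs (log2 fold change 2.28 ± 0.4 in Dgcr8 iKO and 0.92 ± 0.46 in Dicer iKO). Ccne2 had 3.59, 4.23 and 4.73 CPM in Dicer control, 2.93, 6.38 and 3.74 CPM in Dicer iKO, 2.72, 2.72 and 3.11 CPM in Dgcr8 control and 7.31, 8.77 and 15 CPM in Dgcr8 iKO SNs, with a log2 fold change of 1.85 ± 0.3 in Dgcr8 iKO and of 0.04 ± 0.34 in Dicer iKO, where mutants and controls overlapped. Both repressors were called in Dgcr8 iKO. E2f7 had 0.718, 0 and 0.27 CPM in Dicer control, 1.46, 1.55 and 1.25 CPM in Dicer iKO, 0.708, 0.952 and 0.207 CPM in Dgcr8 control and 2.36, 3.24 and 5.02 CPM in Dgcr8 iKO SNs (log2 fold change 2.54 ± 0.51 in Dgcr8 iKO). E2f8 had 0.718, 0.264 and 0.27 CPM in Dicer control, 0.932, 1.04 and 1.8 CPM in Dicer iKO, 0.826, 0.952 and 0.415 CPM in Dgcr8 control and 2.95, 4.29 and 4.2 CPM in Dgcr8 iKO SNs (log2 fold change 2.4 ± 0.4 in Dgcr8 iKO). Chek1, the kinase that stalls the cycle when forks stop, had 1.01, 0.793 and 0.54 CPM in Dicer control, 1.73, 1.04 and 1.94 CPM in Dicer iKO, 0.944, 1.09 and 1.55 CPM in Dgcr8 control and 3.3, 2.96 and 3.97 CPM in Dgcr8 iKO SNs (log2 fold change 1.48 ± 0.35 in Dgcr8 iKO). Not called in either mutant were Cdk2, Pcna, Rrm1 and Tyms. Pcna had 61.2, 66.8 and 61.5 CPM in Dicer control, 62, 71.1 and 70.2 CPM in Dicer iKO, 83, 66.9 and 65.8 CPM in Dgcr8 control and 86.9, 78 and 93.5 CPM in Dgcr8 iKO SNs (log2 fold change 0.1 ± 0.1 and 0.26 ± 0.13). Rrm1 rose by 0.38 ± 0.1 (adjusted p = 0.0344) and 0.75 ± 0.13 (adjusted p = 0.000908), past the test but short of the fold limit. Tyms had 34.2, 30.8 and 45.5 CPM in Dicer control, 57.4, 49 and 46.9 CPM in Dicer iKO, 39.7, 45.7 and 42.8 CPM in Dgcr8 control and 42.9, 47.9 and 49.1 CPM in Dgcr8 iKO SNs, and differed by 0.47 ± 0.16 (adjusted p = 0.0783) and 0.13 ± 0.12 (adjusted p = 0.415).

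Among cyclins and their factors, 4 of 6 were called in Dicer iKO and 6 of 6 in Dgcr8 iKO. Cdk1 had 0.431, 0.264 and 0.27 CPM in Dicer control, 7.05, 9.32 and 9.27 CPM in Dicer iKO, 0.59, 0.544 and 0.725 CPM in Dgcr8 control and 14, 16 and 23.2 CPM in Dgcr8 iKO SNs, a rise of 4.67 ± 0.35 on the log2 scale in Dicer iKO (adjusted p = 0.00111) and of 4.79 ± 0.31 in Dgcr8 iKO (adjusted p = 2.22e-06). Ccna2, the cyclin of S and G2 phase, had 1.44, 1.72 and 0.405 CPM in Dicer control, 7.99, 12.1 and 10.4 CPM in Dicer iKO, 1.3, 1.36 and 1.66 CPM in Dgcr8 control and 20.9, 21.8 and 32.7 CPM in Dgcr8 iKO SNs (log2 fold change 3.08 ± 0.42 and 4.1 ± 0.26). Ccnb1 had 0.718, 1.19 and 0.135 CPM in Dicer control, 4.53, 8.45 and 7.75 CPM in Dicer iKO, 0.236, 0.816 and 0.415 CPM in Dgcr8 control and 17, 12.4 and 22.7 CPM in Dgcr8 iKO SNs (log2 fold change 3.3 ± 0.55 and 5.15 ± 0.39). In all 3 genes every mutant library lay above every control library. Ccnb2 had 1.58, 1.06 and 0.405 CPM in Dicer control, 2.0, 2.76 and 5.26 CPM in Dicer iKO, 0, 0.136 and 0.518 CPM in Dgcr8 control and 5.31, 6.68 and 11.8 CPM in Dgcr8 iKO SNs. It was called in Dgcr8 iKO (5.0 ± 0.6) and not in Dicer iKO (1.72 ± 0.56, adjusted p = 0.0653). Foxm1 had 1.58, 2.38 and 1.08 CPM in Dicer control, 5.46, 6.21 and 4.71 CPM in Dicer iKO, 2.01, 3.81 and 2.18 CPM in Dgcr8 control and 10.1, 11.5 and 16.7 CPM in Dgcr8 iKO SNs (log2 fold change 1.69 ± 0.34 and 2.28 ± 0.3). Mybl2 had 1.72, 0.264 and 0.946 CPM in Dicer control, 3.73, 2.07 and 2.21 CPM in Dicer iKO, 1.3, 1.22 and 0.207 CPM in Dgcr8 control and 2.48, 4.2 and 5.72 CPM in Dgcr8 iKO SNs (log2 fold change 2.21 ± 0.53 in Dgcr8 iKO) and was not called in Dicer iKO (1.47 ± 0.58, adjusted p = 0.112).

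The mitotic kinases and passenger proteins were called in 5 of 6 cases in Dicer iKO and in 6 of 6 in Dgcr8 iKO. Aurka, which acts at centrosomes, had 0.575, 0 and 0.27 CPM in Dicer control, 2.66, 1.38 and 2.63 CPM in Dicer iKO, 0.826, 0.544 and 1.24 CPM in Dgcr8 control and 6.72, 3.62 and 6.88 CPM in Dgcr8 iKO SNs (log2 fold change 2.96 ± 0.72 and 2.65 ± 0.41). Aurkb, the kinase of the passenger complex, had 1.01, 0.397 and 0.405 CPM in Dicer control, 1.73, 2.93 and 3.05 CPM in Dicer iKO, 0.236, 0.68 and 0.415 CPM in Dgcr8 control and 3.89, 4.86 and 10 CPM in Dgcr8 iKO SNs (log2 fold change 2.07 ± 0.5 and 3.8 ± 0.52). Both were at or below 1.24 CPM in all controls. Birc5 had 0.575, 0.529 and 0.54 CPM in Dicer control, 2.8, 2.42 and 2.77 CPM in Dicer iKO, 0.826, 0.68 and 0.415 CPM in Dgcr8 control and 4.95, 4.77 and 9.21 CPM in Dgcr8 iKO SNs (log2 fold change 2.25 ± 0.36 and 3.29 ± 0.42). Cdca8 had 0.575, 0.661 and 0.135 CPM in Dicer control, 1.6, 2.76 and 2.49 CPM in Dicer iKO, 0.354, 0.68 and 0.8291 CPM in Dgcr8 control and 4.6, 4.1 and 7.0 CPM in Dgcr8 iKO SNs (log2 fold change 2.27 ± 0.54 and 3.03 ± 0.41). In Dicer iKO, the calls of Aurka, Aurkb and Cdca8 were lost without Dicer control replicate 2 (adjusted p = 0.0711, 0.103 and 0.0691), and without Dicer iKO replicate 2 or 3 (0.0618 to 0.105). Aurka was also lost without Dicer iKO replicate 1 (0.0571), Aurkb without Dicer control replicate 3 (0.0571), and Foxm1 without Dicer iKO replicate 2 (0.0685) or 3 (0.0547). Melk had 0.144, 0.132 and 0.135 CPM in Dicer control, 1.73, 3.62 and 2.49 CPM in Dicer iKO, 0.236, 0 and 0.104 CPM in Dgcr8 control and 4.72, 4.86 and 6.07 CPM in Dgcr8 iKO SNs. The controls of each line held only 3 Melk counts in all, and the ratio of summed CPM was 18.5 (95% exact interval, counting error only, 5.99 to 92.6) in Dicer iKO and 44.1 (14.8 to 216) in Dgcr8 iKO. Plk1 had 1.01, 0.926 and 0.54 CPM in Dicer control, 1.86, 2.59 and 1.8 CPM in Dicer iKO, 1.3, 1.77 and 0.933 CPM in Dgcr8 control and 3.54, 4.39 and 7.47 CPM in Dgcr8 iKO SNs, and was called in Dgcr8 iKO (1.95 ± 0.39) but not in Dicer iKO (1.31 ± 0.41, adjusted p = 0.0572).

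Checkpoint genes behaved unevenly. Bub1 had 0.575, 0.264 and 0 CPM in Dicer control, 0.799, 3.45 and 3.05 CPM in Dicer iKO, 0.354, 0 and 0.207 CPM in Dgcr8 control and 6.61, 6.87 and 10.7 CPM in Dgcr8 iKO SNs (log2 fold change 5.26 ± 0.51 in Dgcr8 iKO). Ube2c had 0.575, 0.264 and 0.135 CPM in Dicer control, 1.2, 1.55 and 3.46 CPM in Dicer iKO, 0.236, 0.136 and 0.207 CPM in Dgcr8 control and 7.31, 4.29 and 7.58 CPM in Dgcr8 iKO SNs (log2 fold change 4.92 ± 0.47 in Dgcr8 iKO). Neither was tested in Dicer iKO. Cdc20 had 4.6, 5.55 and 5.67 CPM in Dicer control, 8.52, 6.9 and 9.97 CPM in Dicer iKO, 5.55, 4.9 and 7.25 CPM in Dgcr8 control and 15.8, 12.3 and 24.8 CPM in Dgcr8 iKO SNs and was called in Dgcr8 iKO (1.56 ± 0.28), whereas the change in Dicer iKO was 0.69 ± 0.22 (adjusted p = 0.0648). Cdc20 lies opposite to Elovl1, a gene of fatty acid elongation that fell in Dgcr8 iKO (log2 fold change −1.01 ± 0.19, adjusted p = 0.0014) and after crush. Bub1b had 12.9, 10.8 and 11.8 CPM in Dicer control, 5.99, 10.7 and 10.7 CPM in Dicer iKO, 9.56, 7.07 and 9.43 CPM in Dgcr8 control and 16, 12.4 and 21.2 CPM in Dgcr8 iKO SNs. All 3 Dicer iKO libraries lay below their controls, in 2 of them by a narrow margin, and all 3 Dgcr8 iKO libraries above theirs, and neither change was called (−0.38 ± 0.25 on the log2 scale, adjusted p = 0.307, in Dicer iKO, and 0.92 ± 0.23, adjusted p = 0.00703, in Dgcr8 iKO).

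Chromosome and centromere genes were called in both mutants, apart from Ncapd2 in Dgcr8 iKO. Mki67 had 6.46, 8.86 and 2.84 CPM in Dicer control, 34.1, 46.1 and 44.4 CPM in Dicer iKO, 6.97, 5.44 and 4.77 CPM in Dgcr8 control and 93.3, 106 and 147 CPM in Dgcr8 iKO SNs (log2 fold change 2.77 ± 0.34, adjusted p = 0.00304, and 4.33 ± 0.22, adjusted p = 5.08e-07). Top2a had 2.73, 3.04 and 2.03 CPM in Dicer control, 28, 41.9 and 35.3 CPM in Dicer iKO, 2.83, 4.35 and 1.66 CPM in Dgcr8 control and 74.5, 77.2 and 100.1 CPM in Dgcr8 iKO SNs (log2 fold change 3.74 ± 0.23, adjusted p = 0.00109, and 4.87 ± 0.26, adjusted p = 5.99e-07). The lowest mutant library of each line was several times above its highest control. Both genes together made up 11.8% to 17.3% of the summed CPM of mitosis genes in Dicer iKO and 23.6% to 27.5% in Dgcr8 iKO SNs, and 2.97% to 5.86% in the controls, a sum to which Ncapd2 adds much in this experiment. Cenpa had 2.15, 3.57 and 2.57 CPM in Dicer control, 7.05, 10.4 and 8.72 CPM in Dicer iKO, 3.07, 2.86 and 3.94 CPM in Dgcr8 control and 13.2, 10.5 and 16.6 CPM in Dgcr8 iKO SNs (log2 fold change 1.64 ± 0.28 and 2.01 ± 0.25). Cenpe had 3.16, 2.78 and 1.89 CPM in Dicer control, 7.19, 11.2 and 8.58 CPM in Dicer iKO, 3.07, 3.81 and 4.25 CPM in Dgcr8 control and 15.7, 16.4 and 30.6 CPM in Dgcr8 iKO SNs (log2 fold change 1.78 ± 0.29 and 2.48 ± 0.29). Both had smaller fold changes than Cenpf. Cenpf had 2.87, 1.85 and 1.49 CPM in Dicer control, 10.6, 20.2 and 16.2 CPM in Dicer iKO, 1.65, 2.31 and 1.87 CPM in Dgcr8 control and 27.8, 31.1 and 40.7 CPM in Dgcr8 iKO SNs (log2 fold change 2.91 ± 0.34 and 4.09 ± 0.23). Ncapg had 0.287, 0.793 and 0.405 CPM in Dicer control, 4.93, 6.56 and 5.68 CPM in Dicer iKO, 1.18, 0.544 and 0.518 CPM in Dgcr8 control and 9.55, 8.87 and 15.5 CPM in Dgcr8 iKO SNs (log2 fold change 3.47 ± 0.4 and 3.89 ± 0.38).

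Ncapd2 requires care in the mutant experiment. The gene had 117, 89.7 and 69 CPM in Dicer control, 259, 179 and 208 CPM in Dicer iKO, 89.1, 134 and 77.4 CPM in Dgcr8 control and 164, 97.6 and 167 CPM in Dgcr8 iKO SNs, a log2 fold change of 1.23 ± 0.21 in Dicer iKO (called) and 0.51 ± 0.23 in Dgcr8 iKO (not called). In these libraries 77.5% to 93.8% of its counts lay on a 682-base transcript with a retained intron, whose exon holds the small RNA gene Scarna10 (GRCm38, chr6:125186359-125186683, minus strand). The mutant tables list no Scarna10, whereas in crush libraries, whose tables do, this transcript held 0% to 12.7% of Ncapd2 counts. On the 4629-base protein-coding transcript alone, a choice made after seeing the data, Ncapd2 changed by 0.91 in Dicer iKO (adjusted p = 0.0151, under the fold limit) and by 1.15 in Dgcr8 iKO (adjusted p = 0.000281, called), and by 3.07 after crush against uncrushed SNs. With that count, 22 mitosis genes would be called in Dicer iKO and 30 in Dgcr8 iKO.

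The spindle genes were called in 4 of 4 cases in both mutants. Kif11 had 1.44, 1.06 and 1.35 CPM in Dicer control, 8.39, 8.28 and 9.97 CPM in Dicer iKO, 2.24, 0.952 and 1.76 CPM in Dgcr8 control and 17.2, 19.1 and 29.3 CPM in Dgcr8 iKO SNs (log2 fold change 2.78 ± 0.26 and 3.69 ± 0.31). Tpx2 had 1.44, 2.12 and 0.811 CPM in Dicer control, 8.52, 8.97 and 10.7 CPM in Dicer iKO, 1.06, 0.816 and 1.35 CPM in Dgcr8 control and 19.3, 17 and 26.1 CPM in Dgcr8 iKO SNs (log2 fold change 2.67 ± 0.33 and 4.23 ± 0.28). In both genes mutants and controls were far apart. Hmmr had 0.287, 0.661 and 0.135 CPM in Dicer control, 6.66, 8.28 and 6.09 CPM in Dicer iKO, 1.18, 0.952 and 1.14 CPM in Dgcr8 control and 11, 14.7 and 17 CPM in Dgcr8 iKO SNs (log2 fold change 4.2 ± 0.45 and 3.68 ± 0.28). Nusap1 had 1.01, 0.926 and 0.811 CPM in Dicer control, 3.99, 8.11 and 6.78 CPM in Dicer iKO, 1.65, 0.68 and 1.04 CPM in Dgcr8 control and 9.67, 9.06 and 14.8 CPM in Dgcr8 iKO SNs (log2 fold change 2.76 ± 0.38 and 3.28 ± 0.34). Hmmr, which had the smallest rise of the 4 after crush, thus had the largest in Dicer iKO.

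Of the midzone and cytokinesis genes, Kif20a, Kif23 and Prc1 were called in both mutants. Kif20a had 1.01, 0.661 and 0.54 CPM in Dicer control, 9.72, 7.42 and 7.48 CPM in Dicer iKO, 0.708, 0.68 and 0.415 CPM in Dgcr8 control and 13.6, 14 and 21.7 CPM in Dgcr8 iKO SNs (log2 fold change 3.46 ± 0.32 and 4.76 ± 0.33), while Cdc23 on the opposite strand changed by 0.09 and −0.12. Kif23, the motor of centralspindlin, had 1.01, 0.661 and 0.54 CPM in Dicer control, 4.93, 3.45 and 5.26 CPM in Dicer iKO, 0.708, 0.272 and 0.933 CPM in Dgcr8 control and 8.73, 10.3 and 12 CPM in Dgcr8 iKO SNs (log2 fold change 2.62 ± 0.37 and 3.94 ± 0.35). Prc1 had 1.87, 3.44 and 1.62 CPM in Dicer control, 13.7, 19.5 and 14.5 CPM in Dicer iKO, 2.12, 1.77 and 2.18 CPM in Dgcr8 control and 31.8, 34.6 and 39.4 CPM in Dgcr8 iKO SNs (log2 fold change 2.77 ± 0.31 and 4.1 ± 0.19). All mutant libraries were above all controls in these 3 genes. Ect2, the exchange factor that activates RhoA at the cell equator, had 3.02, 3.7 and 2.97 CPM in Dicer control, 5.59, 7.42 and 5.95 CPM in Dicer iKO, 2.36, 3.81 and 4.35 CPM in Dgcr8 control and 10.7, 8.49 and 15.9 CPM in Dgcr8 iKO SNs, and passed the fold limit in Dgcr8 iKO (1.72 ± 0.3) and just missed it in Dicer iKO (0.96 ± 0.25, adjusted p = 0.0306). Anln had 47.3, 53 and 51.7 CPM in Dicer control, 51.4, 43.3 and 43.9 CPM in Dicer iKO, 45.9, 34 and 53.7 CPM in Dgcr8 control and 45.8, 58.1 and 56.2 CPM in Dgcr8 iKO SNs. Its groups overlapped in both lines, and it was not called (−0.13 ± 0.11 and 0.25 ± 0.17).

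The changes in Dgcr8 iKO were larger than those in Dicer iKO for 48 of the 54 members by point estimate, but no difference passed the test. In an interaction fit over the 12 mutant and control libraries, 0 members differed at an adjusted p of at most 0.05, where 0.0148% of 13552 genes did (2 genes). At an unadjusted p under 0.05, 1861 of all genes differed, counted in either direction, and the median difference over all genes was −0.0047. Of the members, 19 differed at that limit, all of them more strongly changed upward in Dgcr8 iKO. Uhrf1 had the lowest adjusted p (0.141), with a difference of 1.89 ± 0.42 on the log2 scale. DESeq2 called 5 members (Uhrf1, Ccne2, Ccnb2, Bub1b and Mki67, adjusted p = 0.0226 to 0.0446), and edgeR called 4 without Dicer control replicate 3 (Uhrf1, Mki67, Tpx2 and Prc1, adjusted p = 0.0122 to 0.0403). Mki67 differed by 1.56 ± 0.42 and Top2a by 1.12 ± 0.41, and Cdk1, at 0.12 ± 0.78, had nearly equal estimates with a wide error. Within Dgcr8 iKO, replicate 3 was the highest library for 48 of 54 members, and its median log2 ratio to controls was 1.41 for replication and 2.92 for mitosis genes, beside 1.0 to 1.08 and 2.32 to 2.37 in the other two. The Dicer iKO libraries had no such order (replicate 2 was highest for 27 members, the others for 13 and 14). Across genes, the log2 fold change after crush (against uncrushed SNs) and that in Dgcr8 iKO had a Pearson's r of 0.73 over 54 genes, 0.67 within replication and 0.68 within mitosis genes, and for Dicer iKO r was 0.57 over 49 genes, 0.39 within replication and 0.54 within mitosis genes. The points of such a plot are genes of shared pathways and lengths, not independent samples.

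Wider lists of the same processes, which hold none of the 54 members, were counted in the same comparisons. Of 44 further replication genes, 33 were called higher and none lower against uncrushed SNs, 33 against contralateral SNs, 3 of 42 tested in Dicer iKO and 8 of 43 in Dgcr8 iKO. In the mutants these shares lie near those of all genes called higher (7.37% and 13.4%), and after crush those of all genes were 15.3% and 14.6%. Of 44 further mitosis genes, the counts were 38, 39, 17 of 33 and 33 of 43, with none lower. Their median log2 fold change in Dgcr8 iKO was 0.14 for replication and 2.70 for mitosis. The highest after crush were the phosphatase Cdc25c (4.97 ± 0.46 against uncrushed SNs), the spindle motor Kif15 (4.96 ± 0.22) and the kinetochore protein Ndc80 (4.96 ± 0.24). Among 14 genes of the retinoblastoma and DREAM complexes and their E2F partners, most of which act in resting cells, 4 were called higher (Rbl1, Lin9, E2f3 and Tfdp1) and 1 lower (Lin52) against uncrushed SNs, where 15.3% of all genes were called higher and 21.1% lower. The lowest called values were those of Lin52 (−1.32 ± 0.17), Tfdp1 (1.0 ± 0.11) and E2f3 (1.08 ± 0.15). Rbl1, which encodes p107 and is itself an E2F target, rose in both mutants (1.35 ± 0.22 in Dicer iKO and 1.48 ± 0.18 in Dgcr8 iKO), and Lin9, E2f3 and Lin52 were called in Dgcr8 iKO (1.09, 1.16 and −1.09).

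Of the markers of other cells, those of macrophages rose in the same comparisons as the cell cycle genes, and the other lists differed between comparisons. Macrophage markers were called higher in 11 of 12 cases against uncrushed SNs, 11 against contralateral SNs, 8 in Dicer iKO and 9 in Dgcr8 iKO, where 1 was lower. The share of all genes called higher in these comparisons was 15.3%, 14.6%, 7.37% and 13.4%, against which the counts of the marker lists that follow are to be read as well. The summed level of macrophage markers was 175 to 190.2 CPM in uncrushed, 110.0 to 206 in contralateral and 559 to 1024 in crushed SNs. In the mutant experiment it was 311 to 854 CPM in Dicer control, 1439 to 2344 in Dicer iKO, 324 to 384 in Dgcr8 control and 1051 to 2422 in Dgcr8 iKO SNs, and no macrophage marker was at 0 throughout a group. The ranges of mutants and controls did not overlap in either line. The range of Dicer iKO SNs lay within that of Dgcr8 iKO SNs. The sums of mitosis genes were 509 to 524 CPM in Dicer iKO and 668 to 974 CPM in Dgcr8 iKO SNs. Ncapd2, most of whose counts lay on the retained-intron transcript, held 179 to 259 and 97.6 to 167 CPM of these sums. No member passed edgeR's interaction test between the mutants. Summed T cell markers, of 6 genes, were at 0.676 to 2.44 CPM in Dicer control, 11.2 to 27.1 CPM in Dicer iKO, 0.354 to 0.725 CPM in Dgcr8 control and 17.5 to 25.5 CPM in Dgcr8 iKO SNs, and at 5.75 to 7.5 CPM in uncrushed and 1.93 to 3.34 CPM in crushed SNs, where Cd3d and Cd8a were called lower. Of these genes, Cd3e and Cd3g were at 0 in all Dgcr8 controls and Trac in all uncrushed SNs. Both calls were against uncrushed SNs. Against contralateral SNs, Cd8a alone of the T cell markers was tested, and it was not called (log2 fold change −0.41, adjusted p = 0.377). In contralateral against uncrushed SNs, the 3 T cell markers tested changed by −1.25 to −1.05, and none was called. Fibroblast markers were called higher in 3 and 4 of 6 cases in the mutants and in 0 after crush, with summed levels of 4556 to 14762 CPM in Dicer control, 19237 to 20487 in Dicer iKO, 6064 to 8016 in Dgcr8 control and 14499 to 17417 in Dgcr8 iKO SNs. Endothelial markers, of which 1 was called lower in Dgcr8 iKO and none was called in Dicer iKO, summed to 134 to 159.7 CPM in uncrushed and 169 to 202 CPM in crushed SNs, where 2 of 6 were called higher. Adipocyte markers summed to 0.544 to 3.31 CPM in Dgcr8 control and 15 to 45.4 CPM in Dgcr8 iKO SNs, and 4 of the 6 were at 0 in all Dicer iKO SNs. Only Fabp4 among them was tested in Dgcr8 iKO, where it was called higher (4.67 on the log2 scale). Fabp4 was also called higher after crush (1.97 against uncrushed and 2.31 against contralateral SNs) but not in Dicer iKO (1.37). Neutrophil markers (at most 63.7 CPM in sum) and skeletal muscle markers (at most 22 CPM) were low in sum. Among the former Retnlg was called higher after crush (7.37 on the log2 scale against uncrushed SNs, and against contralateral SNs, which were all at 0) and in Dgcr8 iKO, whose controls were all at 0. Csf3r was called higher against contralateral SNs (1.06), in Dicer iKO (2.95) and in Dgcr8 iKO (3.18). Cxcr2 was called lower against uncrushed SNs (−1.02) and in Dgcr8 iKO (−2.46), and the muscle gene Actn3 after crush (−3.69 and −3.12) and Tnnt3 in Dicer iKO (−2.12). The part of each cell type in the rise of cell cycle genes was not tested.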

How the data were processed

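RNA of 23 mouse sciatic nerve libraries was sequenced in 2 experiments. Per the labels, crush libraries were made with a SMARTer Stranded Total RNA-Seq Pico Input kit and mutant libraries with Illumina TruSeq stranded RNA after Ribo Zero, whereas the study's methods describe TruSeq for all. The authors trimmed reads with Trimmomatic, aligned them with STAR to Ensembl GRCm38 and quantified transcripts with RSEM, as the sources used here state, and the deposited values are expected counts and TPM for each Ensembl transcript. Whether strand was used in counting is not given in the sources used here. Uncrushed replicate 3 is named by its title, while its description carries the number 4.

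Gene counts were obtained by adding the expected counts of all transcripts and rounding the sum. CPM were scaled with TMM factors within each experiment, and TPM, which in crush libraries are dominated by very short transcripts, served to compare genes within a group. Each pair of groups was tested with edgeR (4.0.16, R 4.3.3) by glmQLFit and glmQLFTest after filterByExpr (minimum count 10) and TMM, with Benjamini-Hochberg adjustment over all genes. The difference between mutants was tested as an interaction over their 12 libraries, with no fold limit. The scripts were tested on simulated counts. Alternatives used DESeq2 (1.42.0), other filters, normalizations, fits and thresholds, and left out each library in turn. No library pair agreed within sampling noise (chi-square per degree of freedom 3.86 to 40.3 over 27 pairs). The smallest depth puts 3 counts at 0.536 CPM, and intervals cover counting error only.

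The genes and lists were chosen with earlier results of these data known. Every member could be named. Values in each library of the experiment concerned are given, after crush, for the members of each role with the highest and lowest change after crush and the highest TPM in crushed nerves and, in the mutant experiment, for those called in a mutant. Tyms and Mki67, Top2a, Cdk1, Ccnb1, Pcna and Mcm2 are given in both. From the wider lists the 3 highest and the 3 lowest genes called after crush are named. A summed level of another marker list is not reported here.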

Additional observations from a re-analysis of the deposited data

Results flagged for a closer look

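In 7 of 108 tests of a gene within a group of 4 libraries, the highest or lowest library stood apart from the rest by more than Dixon's limit, which chance alone exceeds in about 1 of 20 such groups. Mybl2 was low in crushed replicate 4 (5.94 CPM). The other 6 concerned contralateral SNs, with Plk1 in replicate 3 (0.401 CPM), Cdca8 in replicate 2 (1.65 CPM), Hmmr in replicate 2 (5.73 CPM), Nusap1 in replicate 4 (1.74 CPM), Kif23 in replicate 2 (0.942 CPM) and Anln in replicate 3 (20.8 CPM). Bub1b moved down in all 3 Dicer iKO and up in all 3 Dgcr8 iKO libraries, a difference of 1.30 on the log2 scale that missed the threshold of edgeR's interaction test (adjusted p = 0.168) and passed that of DESeq2 (adjusted p = 0.0446).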

How the results depend on the processing

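The counts of genes called after crush (21 replication and 32 mitosis genes against each control) were identical without any single library, while requiring 10 counts in every library reduced the mitosis genes called against contralateral SNs to 20, with 37 of the 54 members left to test. Under that filter 0 replication and 7 mitosis genes were called in Dicer iKO (25 members tested), and 6 and 10 in Dgcr8 iKO (27 members tested). Tyms was the 1 member called lower against uncrushed SNs with that filter, with the replicate block, with all groups in a single fit, without a fold limit and without crushed replicate 4 (0 to 1 members over all single libraries left out), and the 1 called lower against contralateral SNs without a fold limit. Replication genes called in Dicer iKO numbered 2 with an adjusted p limit of 0.01, and 2 to 5 without single libraries (2 without Dicer iKO replicate 2 or 3). For the difference between mutants, DESeq2 called 5 members, and leaving out single libraries gave 0 to 4 (4 without Dicer control replicate 3). Same-numbered libraries did not deviate together (correlation −0.121 to 0.209 for crushed and contralateral, −0.167 to 0.0821 for crushed and uncrushed, −0.19 to 0.0669 for Dicer and −0.162 to 0.108 for Dgcr8), so the numbers were not taken as pairs. With the replicate block, 2 replication and 20 mitosis genes were called in Dicer iKO, where E2f1, E2f2, Aurka, Aurkb and Cdca8 lost their call (adjusted p = 0.0634 to 0.092), 14 and 29 in Dgcr8 iKO, and 21 and 32 after crush. No direction reversed among the results and alternatives computed. Where no value is named for a change, the cause was not tested. Low control counts in the mutants limit how precisely single fold changes are known.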
